A study of Homo sapiens with 6 samples.

Results

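The replisome and origin licensing genes described here are 44 human genes whose products prepare replication origins, start forks and copy or repackage DNA. They were taken from a named list that leaves out the MCM helicase subunits and the nucleotide synthesis enzymes. The rule used no measured value, but the members were chosen with earlier results of these data known. All 44 had a gene model, out of 20144 protein-coding genes in the annotation. For each one, the listed RNA polymerase II (Pol II) peaks over the gene or within 1 kb of any annotated start site were collected.

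DNA replication is prepared when the origin recognition complex, CDC6 and CDT1 load the MCM helicase onto chromatin, a step called licensing that geminin (GMNN) holds back after S phase begins. The kinase CDC7 with its partner DBF4, and then CDC45 and the GINS complex, turn the loaded helicase into an active fork. Primase, polymerases α, δ and ε, the clamp PCNA with its RFC loader and the ligase LIG1 then make the new strands. Many of these genes are textbook targets of E2F transcription factors, which are released from retinoblastoma proteins as cyclin D kinases drive cells out of G1, and malic enzyme 2 (ME2) is a mitochondrial enzyme that turns malate into pyruvate.

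Pol II ChIP-seq peak lists came from SK-Hep1 cells, an established cell line from a liver adenocarcinoma, grown in serum-containing medium. The siCtrl cells received the control siRNA (their treatment label is nc), the siME2 cells received siRNA against ME2, and the siME2+αKG cells received that siRNA and α-ketoglutarate (αKG). There was 1 ChIP library and 1 input library per condition, so no test between conditions was possible, and spread between cultures was not measured. The siCtrl and siME2 libraries carry the number 2 in their labels and the siME2+αKG library carries none, so whether it came from the same experiment is not given. An siRNA acts on mRNA, so Pol II at ME2 would not check the knockdown, and dose and time of treatment are not given in the sources used here. After filtering, the ChIP libraries held 13006504, 10445326 and 12955596 tags in siCtrl, siME2 and siME2+αKG. Their lists held 31710, 29201 and 28968 peaks, and the estimated fragment lengths were 211, 201 and 221 bp. The siME2 library was thus the shallowest and had the shortest fragments, and the part of either in the differences below was not tested. None of 10 hepatocyte markers, 4 annotated endothelial markers or 5 leukocyte markers had a promoter peak in any library. Of 8 mesenchymal markers, the 3 lists held 6, 5 and 6, with 140, 99 and 116 fragments (not scaled for depth) at VIM.

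The promoters on which the results below turn are printed first, as 300 bases from 250 before to 50 after the canonical start site, read on the gene's strand from the GRCh37 genome, the build of the peak lists (hg19). The canonical start site is that of the transcript marked as canonical in the gene models. Capitals mark the E2F motifs TTCCCGC and TTGGCGC, the NF-Y motif CCAAT and the TATA box TATAAA on either strand, and they were found as letters only. The first 5 promoters lost their listed peak in siME2. PRIM1 encodes the catalytic subunit of primase (chr12:57146058-57146357, minus strand), PCLAF a partner of PCNA (chr15:64673591-64673890, minus strand) and RFC3 a clamp loader subunit (chr13:34392036-34392335, plus strand). GINS2 encodes a subunit of the fork helicase (chr16:85722511-85722810, minus strand) and LIG1 the ligase that seals Okazaki fragments (chr19:48673552-48673851, minus strand). The last 4 had the lowest ratios of siME2 to siCtrl height among the members with both peaks, 0.448 to 0.511. They are RFC5, another clamp loader subunit (chr12:118454258-118454557, plus strand), POLE2, a subunit of polymerase ε (chr14:50154883-50155182, minus strand), GINS3, another GINS subunit (chr16:58426125-58426424, plus strand), and GMNN (chr6:24774915-24775214, plus strand).
PRIM1: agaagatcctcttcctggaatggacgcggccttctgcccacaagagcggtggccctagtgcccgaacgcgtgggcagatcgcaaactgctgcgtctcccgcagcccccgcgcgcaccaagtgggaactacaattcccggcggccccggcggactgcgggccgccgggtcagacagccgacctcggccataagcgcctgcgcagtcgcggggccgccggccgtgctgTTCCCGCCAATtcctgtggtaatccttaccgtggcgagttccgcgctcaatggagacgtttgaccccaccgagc
PCLAF: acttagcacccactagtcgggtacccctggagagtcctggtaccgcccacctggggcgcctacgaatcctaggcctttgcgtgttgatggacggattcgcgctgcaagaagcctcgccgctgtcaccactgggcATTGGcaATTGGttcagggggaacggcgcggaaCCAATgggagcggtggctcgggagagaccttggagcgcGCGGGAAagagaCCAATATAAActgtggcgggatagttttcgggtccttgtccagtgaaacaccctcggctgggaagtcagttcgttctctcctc
RFC3: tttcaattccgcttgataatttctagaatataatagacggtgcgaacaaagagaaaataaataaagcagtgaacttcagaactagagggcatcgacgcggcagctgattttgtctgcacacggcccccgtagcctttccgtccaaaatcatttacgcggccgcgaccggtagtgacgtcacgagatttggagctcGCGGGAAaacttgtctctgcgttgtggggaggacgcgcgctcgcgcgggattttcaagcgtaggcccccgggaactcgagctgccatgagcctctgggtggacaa
GINS2: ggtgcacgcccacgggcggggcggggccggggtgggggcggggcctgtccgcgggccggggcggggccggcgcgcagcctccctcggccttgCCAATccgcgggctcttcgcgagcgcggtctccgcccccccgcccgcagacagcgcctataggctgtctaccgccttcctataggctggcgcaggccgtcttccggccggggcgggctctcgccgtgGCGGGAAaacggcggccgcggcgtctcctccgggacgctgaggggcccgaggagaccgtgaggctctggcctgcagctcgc
LIG1: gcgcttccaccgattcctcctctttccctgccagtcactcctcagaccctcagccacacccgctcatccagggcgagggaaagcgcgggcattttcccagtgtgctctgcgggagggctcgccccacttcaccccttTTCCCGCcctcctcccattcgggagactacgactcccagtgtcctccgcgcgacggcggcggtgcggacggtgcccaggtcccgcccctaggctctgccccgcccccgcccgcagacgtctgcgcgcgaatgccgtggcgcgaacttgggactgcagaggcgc
RFC5: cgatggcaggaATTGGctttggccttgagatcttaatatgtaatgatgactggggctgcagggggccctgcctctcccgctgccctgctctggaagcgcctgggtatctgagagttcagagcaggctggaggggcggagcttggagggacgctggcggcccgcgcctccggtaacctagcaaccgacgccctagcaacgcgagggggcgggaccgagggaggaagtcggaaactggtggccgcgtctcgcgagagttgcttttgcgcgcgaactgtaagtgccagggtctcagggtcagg
POLE2: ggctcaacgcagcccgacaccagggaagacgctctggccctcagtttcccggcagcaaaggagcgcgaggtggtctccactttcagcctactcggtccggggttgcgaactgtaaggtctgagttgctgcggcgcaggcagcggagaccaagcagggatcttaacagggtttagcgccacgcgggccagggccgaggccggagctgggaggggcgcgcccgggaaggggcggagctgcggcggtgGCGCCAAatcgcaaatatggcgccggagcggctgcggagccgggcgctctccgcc
GINS3: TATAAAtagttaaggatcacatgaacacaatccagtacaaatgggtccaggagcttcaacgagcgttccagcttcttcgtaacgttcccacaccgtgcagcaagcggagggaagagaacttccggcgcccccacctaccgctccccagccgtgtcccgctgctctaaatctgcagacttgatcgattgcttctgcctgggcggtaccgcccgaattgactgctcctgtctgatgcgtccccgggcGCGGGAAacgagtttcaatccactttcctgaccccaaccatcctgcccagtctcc
GMNN: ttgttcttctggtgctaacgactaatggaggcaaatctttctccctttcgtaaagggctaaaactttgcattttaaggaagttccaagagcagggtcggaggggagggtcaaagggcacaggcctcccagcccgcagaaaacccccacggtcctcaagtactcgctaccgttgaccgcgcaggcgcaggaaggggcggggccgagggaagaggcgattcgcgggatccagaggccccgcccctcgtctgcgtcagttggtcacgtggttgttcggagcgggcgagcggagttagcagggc
In the PRIM1 promoter an E2F motif and a CCAAT box overlap, beginning 24 and 18 bases before the start site. The PCLAF promoter holds 4 CCAAT boxes, an E2F motif and TATAAA, all within 116 bases before the start site. The E2F motif of RFC3 begins 55 bases before the start, that of GINS2 31 bases and that of LIG1 113 bases, and those of GINS3 and POLE2 both begin 5 bases before it. The RFC5 promoter holds a CCAAT box 239 bases before the start and no E2F motif. None of these motifs stands in the GMNN window, which therefore has no capitals.

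Over all 44 promoters, 28 held an E2F motif, which was 63.6% against 12.1% of the 20144 promoters and 15.4% of those with a siCtrl peak. CCAAT stood in 23 of the 44 (52.3%), against 35.9% of all promoters and of those with a siCtrl peak. The NRF1 motif GCATGCG stood in 4 (9.09%), against 1027 of all 20144 promoters and 6.88% of those with a peak. The CHR motifs TTTGAA and TTCGAA, known from promoters of later cell cycle genes, stood in 2 (4.55%), against 12.9% of all and 9.98% of those with a peak. For a further 2 motifs the direction depended on the background. The SP motif GGGCGG stood in 31 (70.5%), above the 61.0% of all promoters and below the 75.0% of those with a peak. TATAAA stood in 3 (6.82%), below the 9.79% of all and above the 4.98% of those with a peak. Both strands were searched for each motif, and a match is a string of letters rather than a bound site. The GC content of the 1 kb around the start sites was similar, with a median of 60.1% for the 44 genes and 61.2% for all genes.

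**Figure D1:**
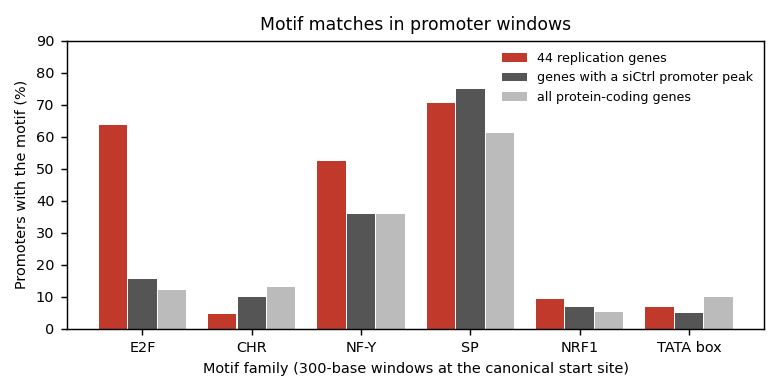
Share of promoter windows (y axis, percent) that hold each motif family (x axis) on either strand, for the 44 replication genes, for genes with a siCtrl promoter peak and for all 20144 protein-coding genes. E2F motifs stand in 63.6% of the replication promoters and in 12.1% of all promoters, and CHR motifs in 4.55% and 12.9%.

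In siCtrl cells Pol II was listed at the promoters of all 44 genes, against 63.0% of all protein-coding genes. After the knockdown the siME2 list held 40 of 44 (61.5% of all genes), and with αKG added the list held 43 of 44 (60.9%). The level at a promoter was measured as its height, the count of extended fragments at the highest summit near a start site (1 kb to either side), divided by the library's filtered ChIP tags and times 1000000. The median height of the 44 genes in siCtrl was 3.84, below the 4.31 of all 12489 genes with a summit there. In siME2 the median was 3.45 over the 39 members with a summit, against 4.21 over all genes with one. In siME2+αKG it was 3.55 over 43 members, against 4.01. Members without a listed summit are left out of these medians. The replication promoters were thus nearly all occupied, at heights under the median of all occupied promoters in each library.

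**Figure D2:**
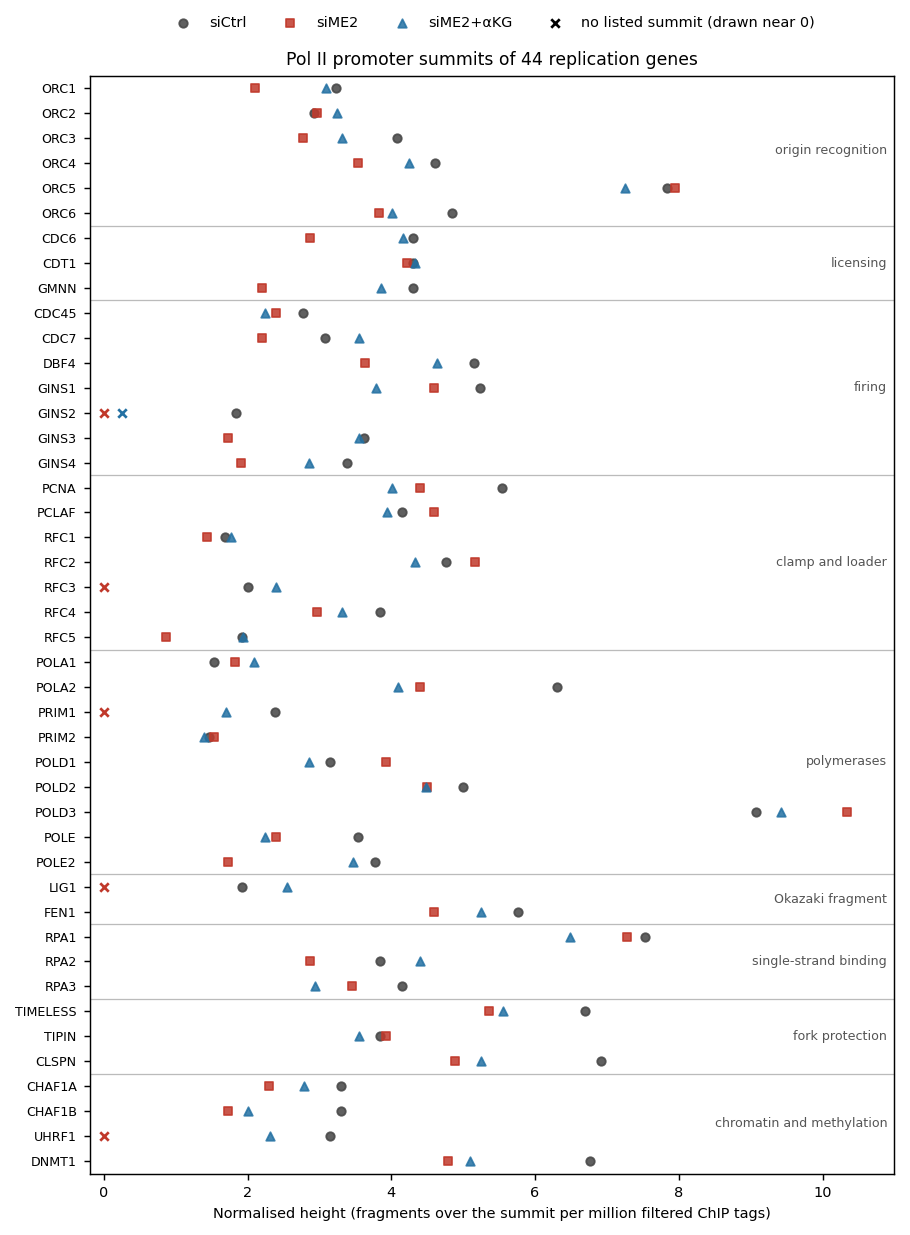
Height of the Pol II promoter summit (x axis, fragments over the summit per 1000000 filtered ChIP tags) for each of the 44 genes, ordered by role, in siCtrl (circles), siME2 (squares) and siME2+αKG (triangles), with 1 library per condition. Crosses near 0 mark genes with no listed summit within 1 kb of a start site, which are GINS2 (siME2 and siME2+αKG), RFC3, PRIM1, LIG1 and UHRF1 (siME2).

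Among promoters that hold the gene's own start, the highest in siCtrl were ORC5, the single-strand binding subunit RPA1, the checkpoint mediator CLSPN and the maintenance DNA methyltransferase DNMT1. ORC5 had 102, 83 and 94 fragments (in this order: siCtrl, siME2, siME2+αKG). Fragment counts here and below are not scaled for depth, and siME2 was the shallowest library. A rise in count from siME2 to siME2+αKG can therefore be a fall in height. Of 39 members, height fell from siME2 to siME2+αKG in 15 and rose in 24. RPA1 had 98, 76 and 84, and its peak also holds the start of its divergent neighbour SMYD4. CLSPN had 90, 51 and 68 fragments, and DNMT1 had 88, 50 and 66. Log2 ratios of siME2 over siCtrl were 0.02 at ORC5, −0.05 at RPA1 and −0.50 at both CLSPN and DNMT1, and all 4 counting intervals held 0. The lowest heights in siCtrl belonged to PRIM2, the large primase subunit (19, 16 and 18 fragments), POLA1, the catalytic subunit of polymerase α (20, 19 and 27), and RFC1, the large loader subunit (22, 15 and 23). GINS2 followed with 24 fragments, then RFC5 and LIG1 with 25 each. At PRIM2 the highest summits of the 3 libraries lay up to 3005 bp apart, at different start sites.

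In 5 members the highest summit of at least 1 library lay near a neighbour's start, far from the gene's canonical start. The summit of POLD3, an accessory subunit of polymerase δ, was the highest of all, with 118, 108 and 122 fragments, but lay 99043 bp away at LIPT2. At the canonical start of POLD3 there were 24, 13 and 22 fragments. GINS1 had 68, 48 and 49 fragments at ABHD12, 16971 bp away, and 43, 26 and 41 at its canonical start. PCLAF had 54, 48 and 51 fragments at TRIP4, 6474 bp away. RPA3, the small single-strand binding subunit, had no listed peak at its canonical start in any library. At the start of UMAD1 it had 54, 36 and 32 fragments, and at a separate peak beside it 45, 21 and 38, so its highest summit in siME2+αKG was that of the second peak. For TIPIN, which stabilises paused forks with TIMELESS, the highest summit was its own in siCtrl (50 fragments) but that at MAP2K1 in siME2 and siME2+αKG (41 and 46), 30487 bp apart. Counts at the canonical start are therefore given beside those at any start site. Besides these genes, the siCtrl peaks of ORC1, ORC3, ORC6, CDC45, DBF4, POLE and FEN1 also held a neighbour's start, among others. In all, 15 of 44 promoter peaks (34.1%) did so, against 25.7% of 12489 genes.

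Comparing siME2 with siCtrl asks how Pol II at these promoters differed after the knockdown of ME2, and some peaks were not listed at all. The promoter peaks of GINS2, RFC3, PRIM1 and LIG1 were in the siCtrl list and not in the siME2 list, 4 of 44 members against a background of 3.62% of 12683 genes with a siCtrl peak. Among the genes whose siCtrl summit had at least 20 fragments, as these had, the background was 0.996% of 11641. The 4 members had 24 to 31 siCtrl fragments, while the siCtrl summits of all genes had a median of 56 and reached 210. That background, and the matching one for siME2+αKG below, is thus not the share for genes of like height, which was not computed. An unlisted peak is one that did not reach the caller's threshold, not a count of 0, and listed summits in siME2 went down to 7 fragments over the whole list.

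At PRIM1 there were 31 fragments in siCtrl, no siME2 peak within 17224 bp of a start site and 22 fragments in siME2+αKG. At RFC3 there were 26 fragments in siCtrl and 31 in siME2+αKG, and the nearest siME2 peak was 274346 bp away. LIG1 had 25 and 33 fragments at its upstream summit, which faces ZSWIM9, and 17 and 18 at a second peak in its first exon, with neither peak listed in siME2. GINS2 had 24 fragments in siCtrl and no promoter peak in siME2 or in siME2+αKG. The GINS2 peak was thus the only one of the 4 also missing from the siME2+αKG list, where the background of lost peaks was 4.23%, or 1.08% of genes with at least 20 siCtrl fragments. Scaled to the siME2 depth, the siCtrl counts would be 24.9 fragments at PRIM1, 20.9 at RFC3, 20.1 at LIG1 and 19.3 at GINS2, against a median of 19 fragments over all siME2 peaks.

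Another 2 genes with a siCtrl summit within 1 kb of the canonical start had no siME2 summit there. PCLAF had 32 fragments in siCtrl and 21 in siME2+αKG at its canonical start, and no siME2 peak within 5923 bp of it. Its siCtrl count would be 25.7 fragments at the siME2 depth. With canonical starts, 5 members had lost their peak, against 3.59% of 12041 genes. UHRF1, which brings DNMT1 to newly copied DNA, had 41 fragments at a summit 180 bp inside the gene in siCtrl and 30 at a summit 818 bp inside in siME2+αKG. In siME2 a peak was listed from 90 to 2378 bp past the start, but its summit, with 24 fragments, lay 2199 bp inside. Second peaks of UHRF1 had summits 1834 bp inside in siCtrl (29 fragments) and 2192 bp inside in siME2+αKG (23 fragments). A summit in that part of the gene was thus listed in every library. The map of 6 start sites shows those of these peaks that lie within 2000 bp of the canonical start.

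**Figure D3:**
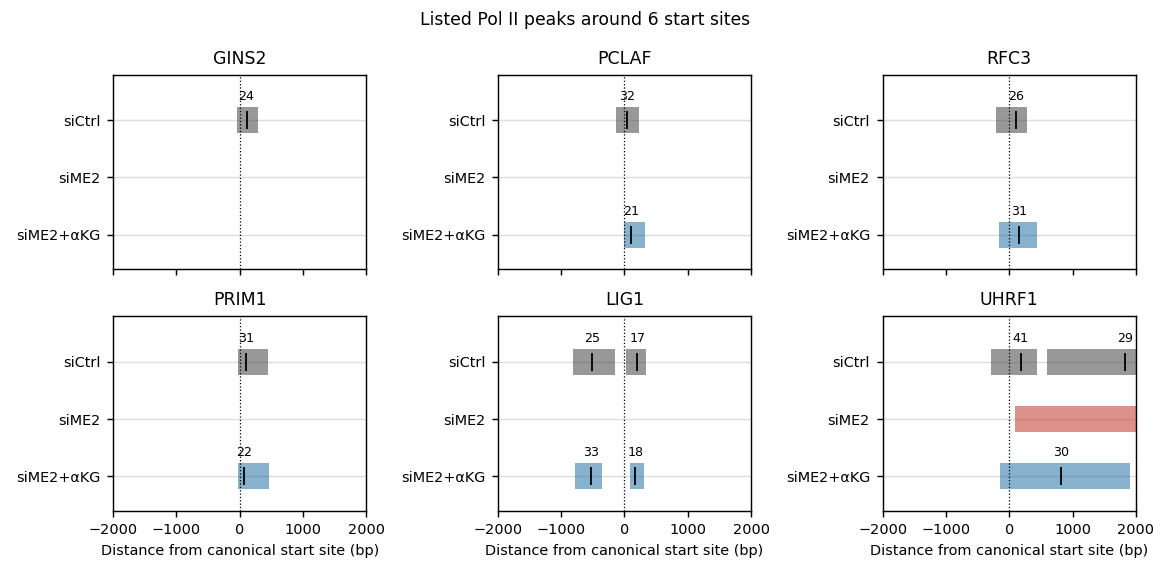
Listed Pol II peaks (bars) and their summits (black lines, with the number of fragments above) within 2000 bp of the canonical start site (dotted line, x axis in bp along the gene) of 6 genes, 1 row per library. GINS2, PCLAF, RFC3, PRIM1 and LIG1 have no siME2 bar, and GINS2 has none in siME2+αKG either; the summit of the siME2 bar at UHRF1 lies outside the frame.

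Where both lists had a summit, the siME2 height was divided by the siCtrl height. The log2 ratio could be formed for 39 of the 44 members, and its median was −0.34, against −0.04 over 11995 genes. It was below 0 in 30 members and above 0 in 9, against 56.5% of all genes below 0. At or under a log2 ratio of −0.5, a height of 0.707 times or less, stood 14 of the 39, against a background of 5.32%. None stood at 0.5 or higher, against 2.49%. An exact binomial interval of 95%, which covers counting error only and not the spread between cultures, lay below 0 in 6 members against 1.56% of all genes, and above 0 in none against 0.625%. No test was possible for this or the later comparisons, and members chosen as one pathway are not replicates of each other.

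The 6 members with an interval below 0 come from different steps of replication and had 0.448 to 0.566 times their siCtrl height. POLE2 had 49, 18 and 45 fragments, in the order siCtrl, siME2, siME2+αKG. Its log2 ratio of siME2 over siCtrl was −1.13 (95% counting interval −2.00 to −0.32). GINS3 had 47, 18 and 46 fragments, with a ratio of −1.07 (−1.94 to −0.26). GMNN, the licensing inhibitor, had 56, 23 and 50 fragments, with a ratio of −0.97 (−1.74 to −0.24). In these 3 genes the siME2 count stood apart from both other counts, which lay close to each other.

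CHAF1B, a subunit of the chromatin assembly factor that places histones behind the fork, had 43, 18 and 26 fragments and a ratio of −0.94 (−1.82 to −0.12). Its siME2+αKG count lay nearer to siME2 than to siCtrl. RFC5, a clamp loader subunit, had 25, 9 and 25 fragments and a ratio of −1.16 (−2.44 to −0.01). GINS4 had 44, 20 and 37 fragments and a ratio of −0.82 (−1.66 to −0.03). The intervals of RFC5 and GINS4 held 0 when the ratios were centred on the median of all genes, corrected for GC content or divided by fragment length, which left 4 members below 0.

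At canonical starts TIPIN joined this group, with 50, 20 and 43 fragments and a ratio of −1.01 (−1.83 to −0.23), whereas its ratio at any start site was 0.03. There the median of 37 members was −0.42, against −0.04 over 11251 genes. In this setting 16 members stood at −0.5 or lower (background 5.50%) and 7 intervals lay below 0 (background 1.60%). The count of 14 at or under −0.5 was 8 with heights divided by fragment length (background 3.50%) and 8 after GC correction (4.05%). After GC correction the members' median relative to that of all genes was −0.30, as in the main setting. Dividing by fragment length shifts every ratio by the same amount, so it cannot change that distance.

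**Figure D4:**
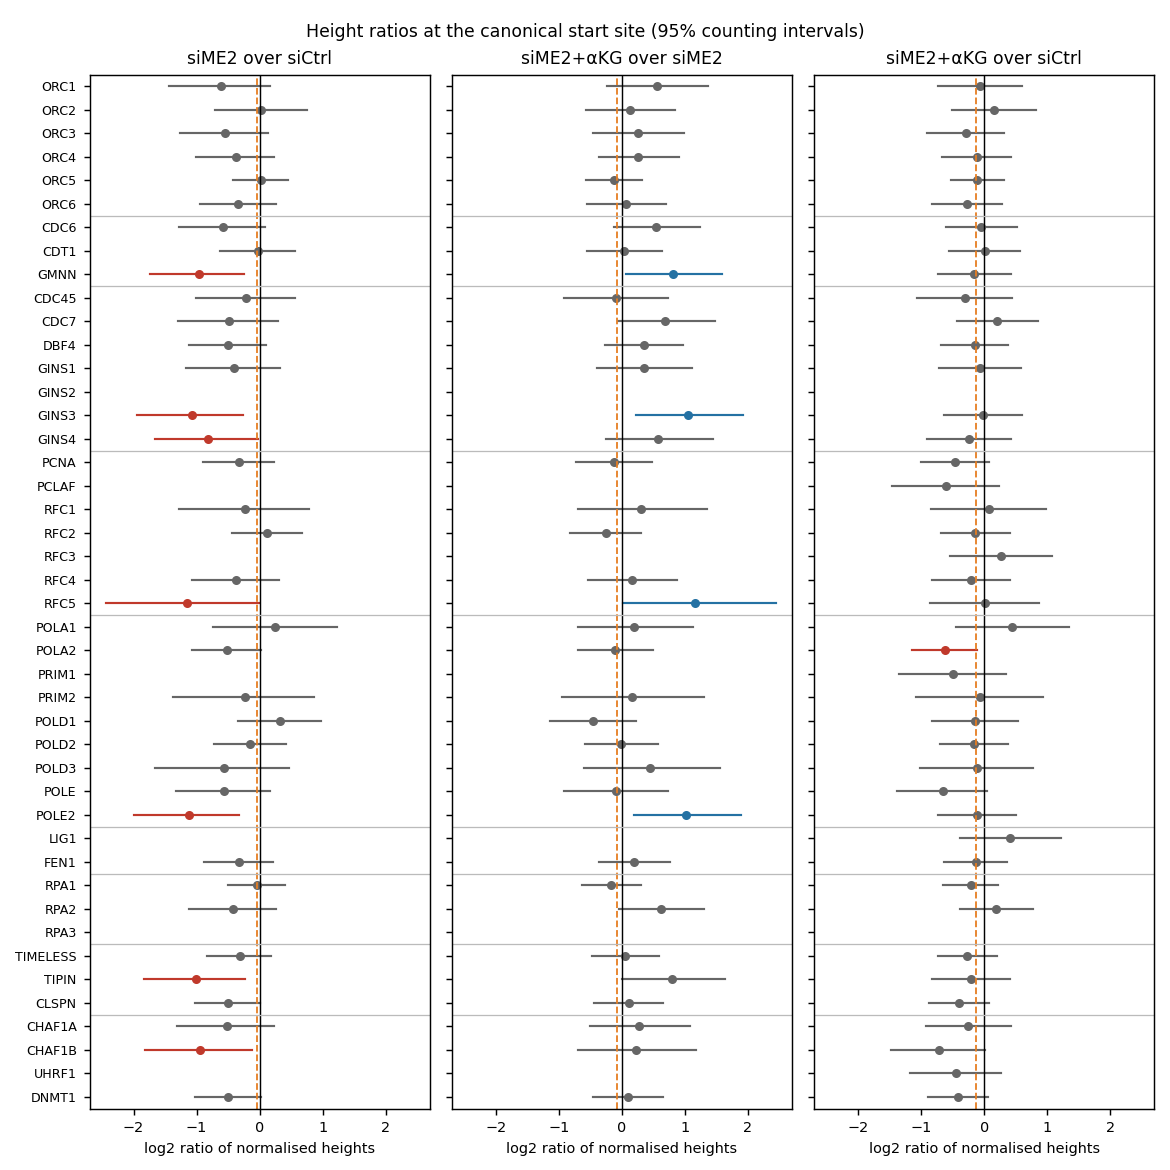
Log2 ratio of normalised heights at the canonical start site (x axis) for each member with a summit in both libraries, with 95% counting intervals as bars, for siME2 over siCtrl, siME2+αKG over siME2 and siME2+αKG over siCtrl. Red marks intervals below 0 (7, 0 and 1 members) and blue intervals above 0 (0, 4 and 0), and the dashed line is the median of all genes.

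By role, the licensing genes had the lowest median ratio of siME2 over siCtrl, −0.58 over 3 genes. It was the lowest at canonical starts too. The medians by role use the highest summit at any start site. GINS1, PCLAF, POLD3, RPA3 and TIPIN thus enter them with a summit near a neighbour's start and far from their canonical start. Medians at canonical starts are given where they differ. CDC6, the loader of the helicase, had 56, 30 and 54 fragments and a ratio of −0.58 (−1.27 to 0.08). CDT1, its partner, had 56, 44 and 56 fragments and a ratio of −0.03 (−0.64 to 0.56). The intervals of the 3 licensing genes overlapped, and differences between genes were not tested here or for the other roles.

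The median over 6 firing genes was −0.49, all 6 below 0. CDC7 had 40, 23 and 46 fragments, and its partner DBF4 had 67, 38 and 60. The highest summit of CDC45 stood nearer to level, with 36, 25 and 29 fragments. In siCtrl it lay 976 bp before the canonical start, in a peak that also holds the start of UFD1. A second CDC45 peak, with its siCtrl summit 166 bp past the canonical start, had 21 fragments in siCtrl and 21 in siME2+αKG. That second peak was not listed in siME2. Of the GINS subunits, GINS3 and GINS4 had intervals below 0, GINS2 had lost its peak and GINS1 stood at −0.41 (−1.17 to 0.33) at its canonical start. All 4 subunits of this complex were thus lower or unlisted in siME2, and the interval of GINS1 held 0.

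In the origin recognition complex the median was −0.36 over 6 genes, and every interval held 0. ORC1 had 42, 22 and 40 fragments, ORC3 had 53, 29 and 43 and ORC4 had 60, 37 and 55. ORC2 (38, 31 and 42) and ORC5 stood at 0.02 each. All 6 genes thus gave intervals around 0.

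Among the clamp and loader genes the median was −0.28 over 6 genes, and −0.33 over 5 at canonical starts. PCNA had 72, 46 and 52 fragments and a ratio of −0.33 (−0.90 to 0.22). RFC2 had 62, 54 and 56 fragments and a ratio of 0.12 (−0.44 to 0.67), while RFC4 (50, 31 and 43) stood at −0.37. The 5 RFC subunits form one loader, and their promoters ranged from a missing peak at RFC3 and the lowest ratio at RFC5 to intervals around 0 at RFC1 and RFC2.

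The polymerase genes had a median of −0.04 over 8 genes at any start site, 4 of them below 0. At canonical starts it was −0.37, with 6 of 8 below 0. POLD1, the catalytic subunit of polymerase δ, had 41, 41 and 37 fragments and the highest ratio of all members, 0.32 (−0.34 to 0.98). POLD2 had 65, 47 and 58 fragments and a ratio of −0.15. POLE, the catalytic subunit of polymerase ε, had 46, 25 and 29 fragments and a ratio of −0.56 (−1.33 to 0.17). Its siME2 summit lay upstream of the canonical start, in a peak that also holds the start of PXMP2. In siCtrl and siME2+αKG the POLE summits lay 134 and 151 bp past the canonical start. A separate siME2 peak, with its summit 186 bp past it, had 18 fragments. The height there was 1.72, against 3.54 in siCtrl and 2.24 in siME2+αKG. The POLE ratio thus compares summits at different places. POLA2, a subunit of polymerase α, had 82, 46 and 53 and a ratio of −0.52 (−1.07 to 0.02). PRIM1 lost its peak, while POLA1, which works in the same enzyme, stood at 0.24 with an interval that held 0.

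At the nuclease FEN1 the counts were 75, 48 and 68, and its peak also holds the starts of FADS2 and TMEM258. RPA2 had 50, 30 and 57 fragments and a ratio of −0.42 (−1.12 to 0.26). TIMELESS had 87, 56 and 72 fragments and a ratio of −0.32 (−0.83 to 0.18). CHAF1A had 43, 24 and 36 fragments and a ratio of −0.52 (−1.31 to 0.23). With CHAF1B and DNMT1 it gave the chromatin and methylation genes a median of −0.52 over 3 genes, all 3 below 0.

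When αKG was added to the knockdown, promoter heights of several of these genes were higher than in siME2 alone. The median log2 ratio of siME2+αKG over siME2 was 0.10 over 39 members, against −0.08 over 11824 genes. It was above 0 in 24 members, against 36.8% of all genes. At 0.5 or higher stood 9 members (background 2.22%), and none stood at −0.5 or lower (background 7.14%). Intervals lay above 0 in 4 members (background 0.499%) and below 0 in none (background 2.71%). The labels do not say whether the siME2+αKG library belongs to the same set as the other libraries. This comparison shares the siME2 library with the one before, so a low siME2 count alone lowers the first ratio and raises the second.

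The 4 members with an interval above 0 were RFC5, GINS3, POLE2 and GMNN, whose counts are given above. Their ratios were 1.16 (0.02 to 2.45) at RFC5, 1.04 (0.23 to 1.92) at GINS3, 1.01 (0.19 to 1.89) at POLE2 and 0.81 (0.07 to 1.59) at GMNN. CDC7 followed at 0.69 (−0.06 to 1.48), RPA2 at 0.62 (−0.05 to 1.30), GINS4 at 0.58, ORC1 at 0.55 and CDC6 at 0.54. POLD1 had the lowest ratio, −0.46 (−1.14 to 0.22). By role the medians were 0.54 for licensing, 0.46 for firing, 0.19 for origin recognition and −0.10 for the polymerases, and at canonical starts the first 3 were the same while that of the polymerases turned to 0.08. At canonical starts the median was 0.20 over 37 members, with 10 at 0.5 or higher (background 2.29%) and 4 intervals above 0 (background 0.486%).

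Dividing heights by fragment length moved the median of all genes to −0.22 and that of the members to −0.033, so the sign of the members' median turned. This scaling shifts every ratio by the same amount, so the members' distance of 0.19 from all genes could not change. Under that scaling 5 members stood at 0.5 or higher (background 1.01%), and the intervals of GINS3 and POLE2 lay above 0 while those of RFC5 and GMNN held 0. The peaks of RFC3, PRIM1 and LIG1, and that of PCLAF at its own start, were listed again in siME2+αKG. Across all genes, 1.82% of 12262 promoters with a siME2+αKG peak had none in siME2.

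**Figure D5:**
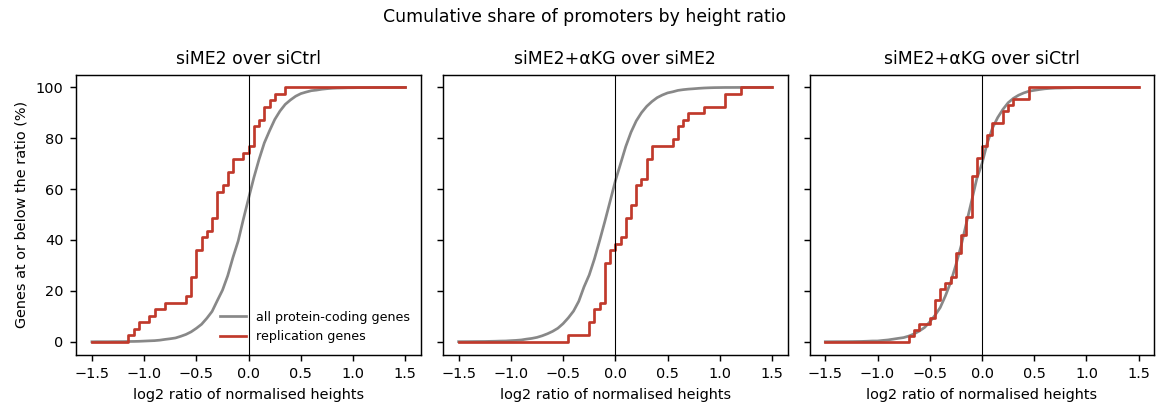
Cumulative share of genes (y axis, percent) at or below each log2 ratio of normalised heights at any start site (x axis) for the replication genes (red) and all protein-coding genes (grey), in the 3 comparisons. The red line lies left of the grey one for siME2 over siCtrl (medians −0.34 and −0.04), right of it for siME2+αKG over siME2 (0.10 and −0.08), and near it for siME2+αKG over siCtrl (−0.14 and −0.13).

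Between siME2+αKG and siCtrl the replication genes stood close to other genes. The median log2 ratio of 43 members was −0.14, against −0.13 over 11900 genes. It was below 0 in 33 members and above 0 in 10, against 70.1% and 29.9% of all genes, and an interval lay above 0 in none against 0.193%. At −0.5 or lower stood 4 members, CHAF1B, POLE, POLA2 and RPA3, the last from summits of different peaks (background 7.81%), and none stood at 0.5 or higher (background 1.21%). The interval lay below 0 at POLA2 alone, at −0.62 (−1.15 to −0.11), against 3.09% of all genes, and it held 0 after centring or GC correction. POLE stood at −0.66 (−1.38 to 0.04) and CHAF1B at −0.72 (−1.48 to 0.02). POLA2, POLE and CHAF1B were thus the members whose siME2+αKG counts lay furthest under siCtrl, while POLA1 (0.44) and LIG1 (0.41) lay furthest above. Of the 4 genes with intervals above 0 in siME2+αKG over siME2, ratios to siCtrl were 0.01 at RFC5, −0.03 at GINS3, −0.12 at POLE2 and −0.16 at GMNN.

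The peaks also differed in length. Over the 39 members with a summit in all 3 lists, the median promoter peak was 1031 bp long in siCtrl, 696 bp in siME2 and 838 bp in siME2+αKG. Over 11713 genes the medians were 1230, 1028 and 1077 bp. The siME2 peak was shorter than the siCtrl peak in 34 of 39 members, against 72.0% of all genes, and the siME2+αKG peak was longer than the siME2 peak in 30 of 39, against 57.0%. At GMNN, for example, the peak spanned 1031 bp in siCtrl, 228 bp in siME2 and 388 bp in siME2+αKG. Length depends on height, depth and fragment length as well as on where Pol II lies, and these were not separated.

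The lists held 69, 64 and 68 peaks over the 44 genes. Of these, 5, 6 and 8 lay more than 1 kb from any annotated start site of the same gene. Such a peak can still lie at a neighbour's start, which was not checked. One of them, past the end of CDT1 in siME2+αKG, had 86 fragments. Peaks near the gene's own starts include some at start sites inside a gene. An example is one of RFC4 in siCtrl, with its summit 15985 bp from the canonical start. No share over all genes was computed. CDT1, a short gene, was covered by siCtrl peaks over 95.3% of its length, by siME2 peaks over 79.2% and by siME2+αKG peaks over 79.4%. In siCtrl 1 peak of 6072 bp ran from its promoter through the gene, and in siME2 that stretch was listed as 4 separate peaks. CHAF1A held a peak near its end with 20, 15 and 19 fragments in the same order of lists. Over the 44 genes the median share of gene length under a peak was 2.02%, 1.41% and 2.14% in siCtrl, siME2 and siME2+αKG.

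For siME2 over siCtrl, sharing a promoter and holding a motif went with small differences in the median ratio at any start site. Members whose siCtrl peak held another gene's start had a median ratio of siME2 over siCtrl of −0.33 over 13 genes, and the others −0.38 over 26. All 6 intervals below 0 were among the others. The 13 include GINS1, PCLAF, POLD3 and RPA3, whose highest siCtrl summit lay near a neighbour's start and far from their canonical start. The 26 include TIPIN, whose highest siME2 and siME2+αKG summits lay at MAP2K1. This split therefore does not separate shared from unshared canonical promoters. Members with an E2F motif had a median of −0.42 over 23 genes and those without −0.33 over 16. The motif was read at the canonical start, but the ratio uses the highest summit at any start site. GINS1, PCLAF, POLD3 and TIPIN hold the motif and enter with a summit near a neighbour's start. Medians by motif at canonical starts were not computed. Over all genes, the medians were −0.07 for 1868 with the motif and −0.03 for 10127 without. GINS2, RFC3, PRIM1, LIG1 and UHRF1, which had no siME2 summit, all held an E2F motif, and GMNN and RFC5 held none. For siME2+αKG over siME2, the median was −0.10 over the 13 members whose siCtrl peak held another gene's start and 0.18 over the 26 others. At 0.5 or higher stood 1 of the 13 and 8 of the 26, and all 4 intervals above 0 were among the 26. With an E2F motif the median was 0.20, and without 0.06. These differences were not tested.

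Of the MCM helicase subunits, MCM3 had 47 and 37 fragments in siCtrl and siME2+αKG and no siME2 promoter peak, and the other 5 had a median ratio of siME2 over siCtrl of −0.05, from MCM4 at −0.55 (−1.07 to −0.05) to MCM7 at 0.37. For siME2+αKG over siME2 the median of these 5 was −0.18, 4 of them below 0 and none at 0.5 or higher, and MCM6 (52, 29 and 28 fragments) had an interval below 0 in siME2+αKG over siCtrl, at −0.89 (−1.61 to −0.20). The other fork factors are a mixed list, with the polymerase subunits POLD4, POLE3 and POLE4 beside checkpoint, histone chaperone and repair genes, among others. All 36 were listed in every library. Their median ratio was −0.15 for siME2 over siCtrl and 0.02 for siME2+αKG over siME2, with 6 of 36 at −0.5 or lower in the first and 3 of 36 at 0.5 or higher in the second. The histone chaperone gene ASF1B had 54, 26 and 56 fragments, with ratios of −0.74 (−1.47 to −0.04) and 0.80 (0.10 to 1.53). DTL, an adaptor of the ubiquitin ligase that destroys CDT1, had 37, 21 and 49 fragments and a siME2+αKG over siME2 ratio of 0.91 (0.15 to 1.72). At any start site no other gene of that list had an interval off 0 in the 3 comparisons. At canonical starts a further gene did, MCMBP, whose product binds MCM subunits, with 73, 42 and 44 fragments and a siME2+αKG over siCtrl ratio of −0.72 (−1.30 to −0.17).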

How the data were processed

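Pol II occupancy of SK-Hep1 cells was measured with 1 ChIP and 1 input library per condition. Per the labels' protocols, reads were aligned to hg19 with Bowtie2 2.3.5.1, and the submitters' processing notes name MACS2 2.2.6, whereas the file headers name MACS 2.2.7.1. Per the file headers, peaks were called for each library against its own input at a p-value of 1e-05 with 1 tag per position. The deposited pileup is a signal, the extended fragments over the summit, and it was scaled by 0.900 in siME2+αKG, so whole fragments were recovered by division (largest deviation 0.0055). The deposited fold enrichment is the authors' ratio of pileup to local background. The deposited −log10 p and q values are the caller's, and they were used only to filter peaks, at a −log10 q of 5 in one alternative.

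Gene models came from GENCODE release 44 on GRCh37. A peak counted as a promoter peak if it overlapped 1 kb around any annotated start site by 1 bp, and heights came from the highest summit there. Log2 ratios have exact conditional binomial (Clopper-Pearson) 95% intervals, which cover counting error only. They were tested on counts simulated under the model they assume. That test left out the choice of the highest listed summit in each library. Heights and ratios were computed over all genes in Python 3.11.15 with numpy 2.4.6, pandas 2.3.3 and scipy 1.17.1, and figures with matplotlib 3.10.9. Named members were those with an interval off 0, those lacking a promoter peak in a list and the 5 highest and 5 lowest by siCtrl height; the others were described by role. The members and lists were chosen with earlier results of these data known. Alternatives varied the window, the q threshold, the start site, the scaling, the fold and the summit used.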

Additional observations from a re-analysis of the deposited data

How the results depend on the processing

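Of 268 alternative values, 232 were labelled the same as the main value, 35 moved and 1 changed sign. The label leaves room for change. For siME2 over siCtrl, the 14 members at or under −0.5 were 10 after centring and 19 with the nearest summit, both labelled the same. Values of single named genes are among the 268. For most of these genes the alternative windows, q threshold and start site used the same peak, so those values could not move. For siME2 over siCtrl, the 14 members at or under −0.5 were 8 when divided by fragment length, 8 after GC correction, 9 at canonical starts with fragment length (an alternative chosen after seeing the data) and 3 at a log2 ratio of 1. The 0 members at 0.5 or higher were 1 with a window of 500 bp and 2 with the summit nearest the start site. With that nearest summit, intervals lay below 0 in 10 members instead of 6 and above 0 in 1 instead of 0, but 4.88% and 3.37% of all genes then passed as well.

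For siME2+αKG over siME2, dividing by fragment length turned the median from 0.10 to −0.033, left 5 in place of 9 members at 0.5 or higher and 2 in place of 4 intervals above 0, and put 1 member at −0.5 or lower. Canonical starts with fragment length gave 1 member at −0.5 or lower and 2 intervals above 0. A log2 ratio of 1 left 3 members higher. The nearest summit gave 3 members lower, 2 intervals below 0 and 7 above 0.

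For siME2+αKG over siCtrl, the median of −0.14 was −0.014 after centring on all genes and −0.026 after GC correction. The 4 members at −0.5 or lower were 2 after centring, 2 after GC correction, 8 with fragment length, 7 at canonical starts with fragment length, 7 with the nearest summit and 0 at a log2 ratio of 1. Centring and GC correction each put 2 members at 0.5 or higher. The 1 interval below 0 became 0 after centring, 0 after GC correction, 3 with fragment length, 3 at canonical starts with fragment length and 4 with the nearest summit. The cause of these moves was not tested.

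The counts of missing siME2 peaks stayed between 4 and 5 in all 5 alternatives tried for them. Depth limits the lowest promoters, where 9 fragments at RFC5 carry an interval from −2.44 to −0.01. No paired analysis was possible because each condition had 1 ChIP library and no test was run, although the siCtrl and siME2 titles share the number 2; the siME2+αKG title has none.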
